A study of Mus musculus with 6 samples.

Results

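Lung cells of Nos1 knockout mice were compared with lung cells of wild-type mice after lipopolysaccharide (LPS), cell class by cell class. The members were chosen by the sample labels and 2 filters on barcodes: the KO LPS and WT LPS libraries, and in them barcodes with at least 200 detected genes and at most 10% of unique molecular identifiers (UMIs) from mitochondrial genes. This kept 42803 cells of the 61736 that passed in the whole series. The WT LPS libraries held 10772 and 12069 of these cells and the KO LPS libraries 11578 and 8384.

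Both groups received 10 mg/kg LPS by the intraperitoneal route and were followed for 4 h. WT mice are named in the labels as wild type (C65BL6), and KO mice as NOS1-/-. The labels give no knockout allele, promoter or Cre line, no background strain of the KO mice, and no age or number of animals. Whole lungs were digested, red cells were lysed, and CD45-bearing cells were pulled out on magnetic beads, so endothelial, stromal and epithelial cells are carry-over of a leukocyte selection and their shares depend on it. The series also holds 1 vehicle library of each genotype, used here only as levels for reference. Nothing in the labels says that the 2 libraries of a group came from separate animals, so every p-value below covers just the variation of these libraries and may reflect technical steps.

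Nos1 encodes neuronal nitric oxide synthase, a calcium-dependent enzyme that makes nitric oxide from arginine. Nos2, the inducible enzyme, is the form that inflamed myeloid cells switch on. LPS binds Tlr4 and activates NF-kB, whose inhibitors (Nfkbia) and cytokines (Tnf, Il1b, Cxcl chemokines) are its early targets, and it also induces type I interferon, which drives the Ifit, Isg and Oas genes through STAT proteins. Socs1 and Socs3 are feedback proteins that dampen JAK-STAT signalling, and Socs1 is also known to limit NF-kB p65. The title of the study names SOCS1 and NF-kB target genes in macrophages.

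The libraries differed in a way the genotype does not explain. WT LPS cells carried transcripts of the X-inactivation RNA Xist and almost none of the Y-linked genes Ddx3y, Eif2s3y, Kdm5d and Uty: 4 and 1 cells had Y-linked UMIs alone. In the KO LPS libraries 31.7% and 33.2% of cells carried Xist and no Y-linked UMI (Xist-only cells), and 21.7% and 19.5% carried Y-linked UMIs and no Xist (Y-only cells). The KO LPS libraries thus held both kinds of cell and the WT LPS libraries 1 kind. The KO vehicle library had Xist-only cells and the WT vehicle library Y-only cells, each with at most 2 cells of the other kind. Among marked KO LPS cells the Y-only share differed by class: it was 63.2% and 66.2% in neutrophils, 60.2% and 52.8% in classical monocytes and 51.7% and 40.7% in alveolar macrophages, against 8.30% and 8.62% in B cells and 13.6% and 15.8% in natural killer (NK) cells. Detection of the marks differed by class too. Xist alone was found in 80.0% of B cells and 14.0% of neutrophils of the KO vehicle library. Y-linked UMIs alone were found in 35.3% of B cells and 21.0% of neutrophils of the WT vehicle library. The part of detection in the class differences was not tested. Since the genotypes differed in these marks, most results are given for all cells and for Xist-only cells of both genotypes. A cell without a Xist UMI cannot enter that set, so it favours deeply sequenced cells, and in neutrophils it kept 450 and 266 KO LPS cells of 3762 and 2733. Cells with both marks were left out too, which were 6.62% and 5.71% of KO LPS cells and 0.0371% and 0.0166% of WT LPS cells. In KO LPS these were 22.3% and 15.9% of interstitial macrophages and 13.3% and 11.3% of dendritic cells. This step thus acted almost only on KO LPS, and its part in the Xist-only results was not tested.

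**Figure D1:**
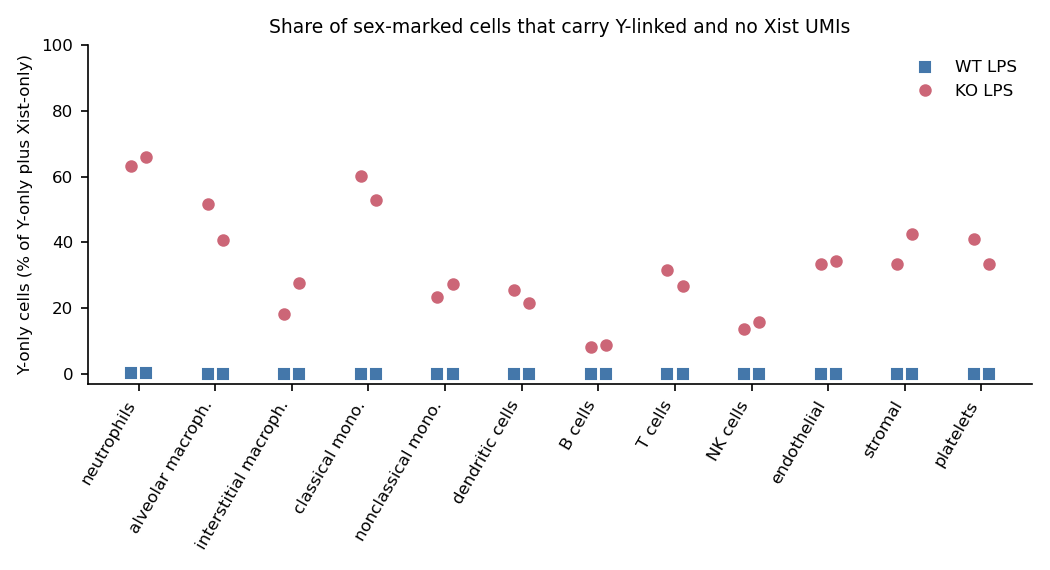
Share of Y-only cells among all sex-marked cells (Y-only plus Xist-only, in percent, y axis) for each cell class (x axis), with 1 point per LPS library, WT LPS as squares and KO LPS as circles. The WT LPS points lie at or near 0, and the KO LPS points range from 8.30% in B cells to 66.2% in neutrophils. Detection of each mark also differs by class, and its part in these shares was not tested.

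Library totals were 60105386 to 115225284 UMIs, and the median cell held 4865 to 7238 UMIs. The median mitochondrial share was 1.95% and 2.14% in KO LPS against 0.546% and 0.801% in WT LPS. Classes were named from marker genes of clusters and a gate of at least 2 markers per cell, which left 34599 cells in 12 classes with enough cells for a gene test. Any pair of libraries had between 19 and 34 cell barcodes in common.

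Nos1 itself was almost absent from these cells. The KO LPS libraries held 4 and 4 Nos1 UMIs and the WT LPS libraries 0 and 1, with exact 95% Poisson intervals of 1.09 to 10.2 for 4 UMIs and up to 3.69 for 0, which cover counting error only. The vehicle libraries held 5 (KO) and 2 (WT). These tags come from the 3' end of the transcript and need not lie in the deleted part, so they check neither the knockout nor the labels. The gene lies at chr5:117781032-117958840 on the plus strand of mm10. Of 157 genes within 10 Mb of it that were tested in at least 4 classes, 20 (12.7%) differed the same way in at least 4 classes, against 11.9% of all genes so tested. In Xist-only cells it was 4 of 137 (2.92%) against 2.17%, so the region around the locus was near the background in both.

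Neutrophils made up less of the KO LPS lung cells and B cells more. Neutrophils were 46.0% and 47.4% of cells in the WT LPS libraries and 35.8% and 34.9% in the KO LPS libraries, a log2 difference of -0.40 ± 0.07 (SE, adjusted p = 4.9e-06). B cells were 7.37% and 7.36% against 12.4% and 12.9%, a difference of 0.78 ± 0.08 (SE, adjusted p = 2.0e-09). In both classes the libraries of 1 genotype lay beyond those of the other. The differences were larger among Xist-only cells, at -0.84 ± 0.14 (SE, adjusted p = 0.0051) for neutrophils and 1.1 ± 0.06 (SE, adjusted p = 0.00012) for B cells. Without the first WT LPS library the neutrophil difference among Xist-only cells was -0.74 (adjusted p = 0.063). In the WT and KO vehicle libraries neutrophils were 5.62% and 5.36% and B cells 24.7% and 22.1%.

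T cells were 3.62% and 3.86% in WT LPS and 5.53% and 5.96% in KO LPS (0.61 ± 0.10 SE, adjusted p = 2.7e-06), and they were also higher among Xist-only cells, by 0.50 ± 0.08 (SE, adjusted p = 0.0044). Without the first WT LPS library the latter was 0.45 (adjusted p = 0.056). Endothelial, stromal and platelet shares were higher in KO LPS too, by 0.68 ± 0.10 (SE, adjusted p = 2.0e-06), 1.09 ± 0.17 (SE, adjusted p = 2.7e-06) and 1.16 ± 0.21 (SE, adjusted p = 1.7e-05). Among Xist-only cells, with 1 library left out at a time, these differences were 0.41 to 0.65, 0.78 to 1.30 and 0.80 to 1.74. Xist-only platelets were 10 and 4 cells in KO LPS and 5 and 4 in WT LPS. Endothelial and stromal cells are carry-over of the CD45 selection, and its part in their shares was not tested. NK cells were 3.02% and 3.21% in WT LPS and 2.01% and 2.24% in KO LPS (-0.56 ± 0.12 SE, adjusted p = 8.5e-05), but among Xist-only cells the difference was -0.07 ± 0.11 (SE, adjusted p = 0.57). Classical monocytes did not pass over all cells (-0.15 ± 0.08 SE, adjusted p = 0.082) and were lower among Xist-only cells (-0.60 ± 0.09 SE, adjusted p = 0.0044). Alveolar macrophages were higher over all cells (0.24 ± 0.08 SE, adjusted p = 0.0086), which did not hold among Xist-only cells (-0.25 ± 0.11 SE, adjusted p = 0.087) or with neutrophils left out of the total (-0.07 ± 0.09 SE, adjusted p = 0.51). Without the second WT LPS library it was 0.13 over all cells and did not pass. Shares add up to a whole, so fewer neutrophils and more of another class cannot be told apart from these numbers.

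**Figure D2:**
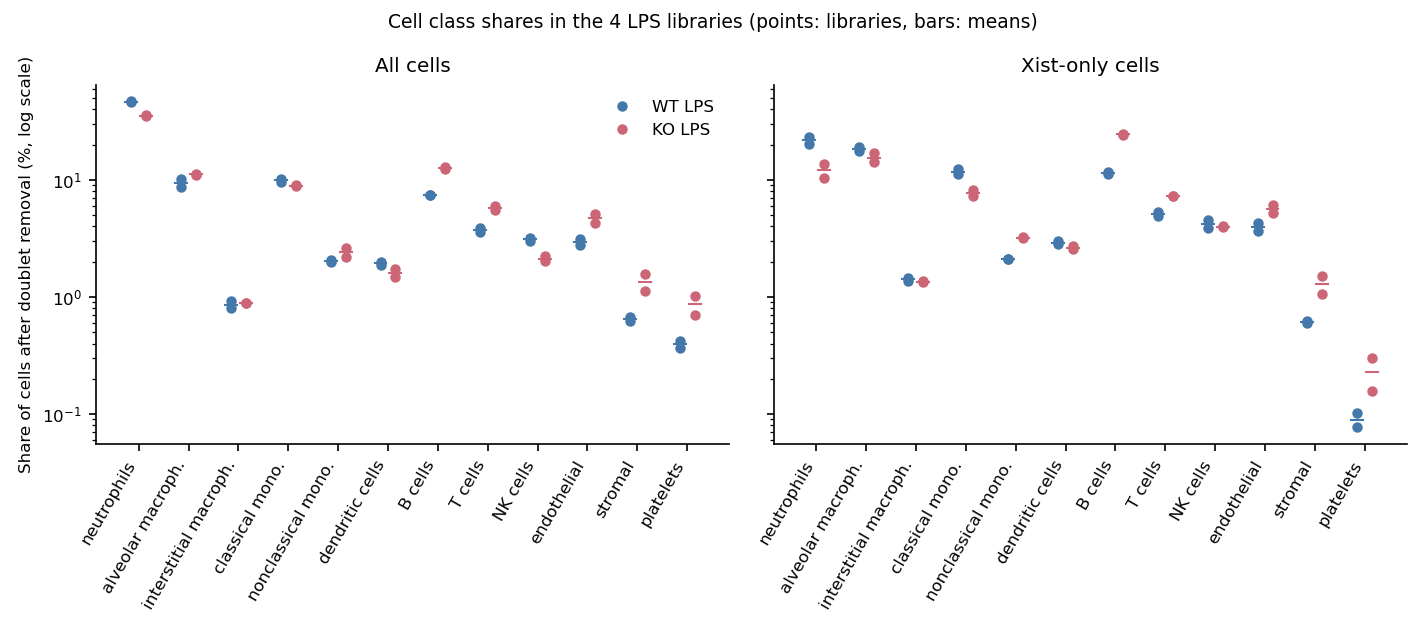
Share of each cell class (y axis, percent of cells left after doublet removal, log scale) in the 4 LPS libraries, over all cells (left) and over Xist-only cells (right); points are libraries and bars are means of 2. Neutrophils sit at 46.0% and 47.4% in WT LPS against 35.8% and 34.9% in KO LPS, and B cells at 7.37% and 7.36% against 12.4% and 12.9%.

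UMIs were summed per library and class and tested with edgeR. Levels below are CPM, counts scaled to a common library total, of a class's UMIs in a library, after edgeR's TMM scaling, and differences are log2 of KO LPS over WT LPS with a standard error (SE). A value after a semicolon in the same parentheses is the log2 difference among Xist-only cells. Over all cells the largest shares of tested genes passed an adjusted p of 0.05 in B cells (2049 higher and 2152 lower of 9626, 43.6%), classical monocytes (2139 and 2171 of 10169, 42.4%), alveolar macrophages (2039 and 2307 of 11614, 37.4%) and neutrophils (1748 and 1737 of 10187, 34.2%). Endothelial cells followed with 794 higher and 1036 lower (19.4%), dendritic cells with 546 and 601 (12.8%) and interstitial macrophages with 395 and 422 (11%). T cells gave 261 and 447 (8.41%), nonclassical monocytes 244 and 237 (6.96%) and NK cells 190 and 209 (5.57%). Stromal cells gave 3 and 10 (0.235%) and platelets 4 and 1 (0.191%). With cells put into classes one by one from their own markers, without clusters, B cells gave 125 calls, nonclassical monocytes 1449 and stromal cells 602. Cell numbers and depth differ between classes, so these counts do not order the classes by strength of response.

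Xist-only cells gave fewer calls in every class tested, from fewer cells. B cells held up best: 1707 genes were higher and 1761 lower (37.4%), and 78.4% of the genes called over all cells and tested again remained called the same way. In neutrophils the share of tested genes called was 18.2% (527 higher, 777 lower) and 33.4% of calls remained. In alveolar macrophages it was 18.2% (1088 and 913) and 29.8% remained, while 115 genes passed in the opposite direction. In classical monocytes it was 13.5% (677 and 516), only 14.5% remained, and 253 genes passed the opposite way. The other classes had 3.1% (T cells), 4.41% (endothelial cells), 2.46% (nonclassical monocytes), 1.3% (NK cells), 1.06% (dendritic cells) and 0.395% (interstitial macrophages) of genes called. Stromal cells had 0 calls with edgeR, where 391 genes had an unadjusted p under 0.05 and DESeq2 called 25.

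**Figure D3:**
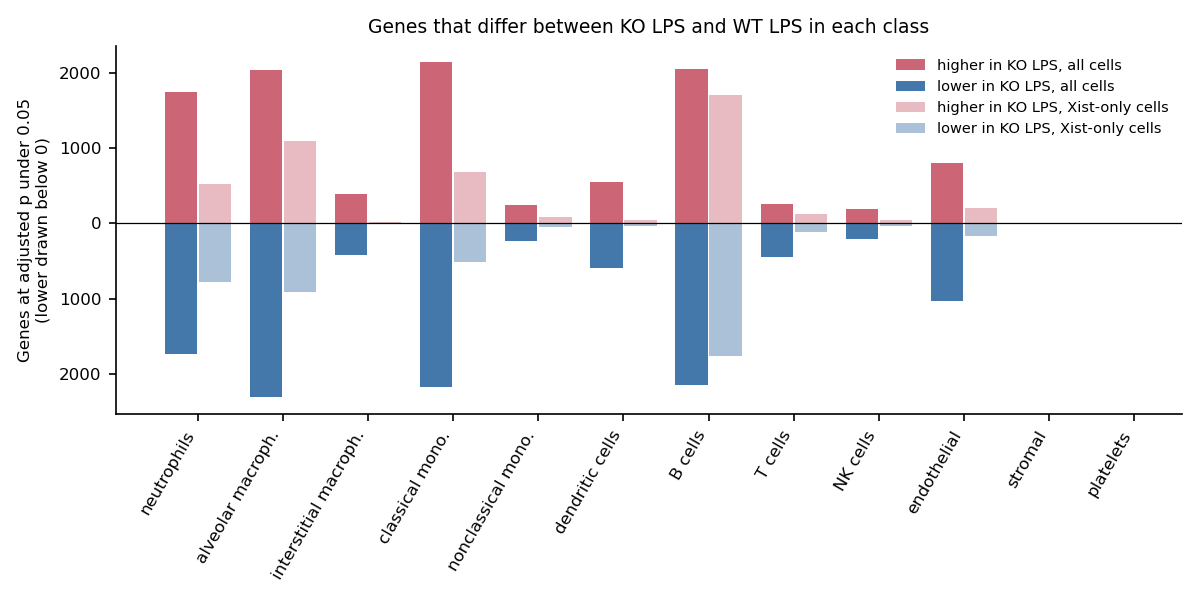
Number of genes (y axis; genes higher in KO LPS above 0, lower below 0) past an adjusted p of 0.05 in each class (x axis), over all cells (dark bars) and over Xist-only cells (pale bars). B cells keep most of their genes (4201 over all cells, 3468 over Xist-only cells), while classical monocytes go from 4310 to 1193.

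A gene was called shared where it passed in at least 4 classes in 1 direction and in none in the other. Of 9732 genes tested in at least 4 classes, 486 were shared higher and 675 shared lower in KO LPS (11.9%). Of 8526 such genes in Xist-only cells, 88 were shared higher and 97 lower (2.17%). The 2 sets had 132 genes in common in the same direction, 55 higher and 77 lower, which is 11.4% of the first set and 71.4% of the second.

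The 10 leading shared falls over all cells were each lower in 10 of 12 classes. They were Slfn4 (a Schlafen gene of myeloid cells; median log2 difference over classes -0.79), Isg15 (a ubiquitin-like modifier; -0.86), Ifitm3 (a membrane block to virus entry; -0.63), Isg20 (an exonuclease; -0.64), B2m (the light chain of MHC class I; -0.63), Bcl3 (an atypical IkB protein; -0.75), Gadd45b (-0.56), Pnp (purine nucleoside phosphorylase; -0.85), Ciao2b (-0.60) and Cox17 (copper delivery to cytochrome oxidase; -0.59). Slfn4 reached 10% of its highest level in 4 classes only, and each of the others did so in at least 8. Isg15 in neutrophils stood at 7992 and 7844 CPM in the WT LPS libraries and 5391 and 4398 CPM in the KO LPS libraries, a difference of -0.69 ± 0.07 (SE, adjusted p = 5.8e-06). In alveolar macrophages it stood at 201.2 and 146.3 CPM in WT LPS and 79.2 and 63.1 CPM in KO LPS (-1.28 ± 0.12 SE, adjusted p = 6.8e-07), beside 8 of 10 neutrophil markers lower there (median -1.20), whose part was not tested. In classical monocytes it stood at 7412 and 7288 CPM in WT LPS and 3804 and 3224 CPM in KO LPS (-1.06 ± 0.06 SE, adjusted p = 2.3e-08). In each of these 3 classes both KO LPS libraries lay below both WT LPS libraries, and the fall also passed in Xist-only cells, at -0.66, -1.09 and -0.40.

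The shared rises over all cells were led by the Y-linked Ddx3y and Eif2s3y, each higher in 10 classes, which restates the sex marks. The other leading genes were the integrin subunits Itga4 (9 of 11 classes, median 0.90) and Itgb1 (9 of 12, 0.50), the cytoskeletal linkers Sptbn1 (9 of 12, 0.53) and Macf1 (9 of 12, 0.56), the translation inhibitor Pdcd4 (8 of 11, 0.83), the transcription factor Klf4 (8 of 11, 1.06), Vps13c (8 of 9, 1.13) and the linker histone Hist1h1e (8 of 11, 0.96). In Xist-only cells the leading rises were the silencing factor Tasor2 (8 of 11 classes, median 0.79), the cold-inducible RNA-binding protein Cirbp (7 of 11, 0.93) and the demethylase-family gene Jmjd1c (7 of 11, 0.49). Then came Selenop, Itga4, Fnbp4, Erbin and Rapgef6 (6 of 11 each), Pdcd4 (6 of 8) and the linker histone H1f0 (5 of 10).

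The shared falls in Xist-only cells were Slfn4 (9 of 11 classes, median -1.22), the acute-phase gene Saa3 (8 of 11, -1.60), Wfdc17 (8 of 11, -0.52) and, in 7 of 11 classes each, S100a8, S100a9, haptoglobin (Hp), Chil1, Ms4a4c, Il1r2 and lipocalin 2 (Lcn2). Most of these are abundant neutrophil transcripts: S100a8, S100a9, Chil1 and Il1r2 reached 10% of their highest level in 2 classes only. Slfn4 reached 10% of its highest level in 4 classes. Over all cells the 10 neutrophil markers as a list were lower in B cells (8 of 10, median -1.12), T cells (8 of 10, -1.12), alveolar macrophages (8 of 10, -1.20) and classical monocytes (9 of 10, -0.81), against 3 higher and 5 lower of 10 in neutrophils (median -0.14). In Xist-only cells they were lower in B cells (9 of 10, -1.19), alveolar macrophages (9 of 10, -1.29), classical monocytes (8 of 10, -1.19), endothelial cells (6 of 10, -1.43) and T cells (5 of 9, -0.95). Of all genes tested over all cells, 22.4% fell in B cells, 5.31% in T cells, 19.9% in alveolar macrophages, 21.3% in classical monocytes and 17.1% in neutrophils. Of those tested in Xist-only cells, 19% fell in B cells, 8.3% in alveolar macrophages and 5.82% in classical monocytes. It was 1.95% in endothelial cells and 1.47% in T cells. Neutrophils were also fewer in KO LPS, and the part of free neutrophil RNA in the falls of the markers and shared genes was not tested. With classes counted only where a gene reached at least 10% of its highest level, 31 genes were shared lower and 64 shared higher in Xist-only cells, in place of 97 and 88. Over all cells 514 were shared lower and 338 shared higher, in place of 675 and 486.

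Saa3 was high in several classes, so its fall can be read within them. In neutrophils Saa3 stood at 5101 and 5486 CPM in the WT LPS libraries and 1780.5 and 1818 CPM in the KO LPS libraries, a difference of -1.56 ± 0.05 (SE, adjusted p = 1.2e-10). In classical monocytes it stood at 32163 and 32611 CPM in WT LPS and 15815 and 14564 CPM in KO LPS (-1.09 ± 0.04 SE, adjusted p = 8.3e-10). The 2 genotypes did not overlap in either class. Among Xist-only cells the falls were -1.69 (adjusted p = 1.6e-13) and -1.24 (adjusted p = 4.3e-08). Slfn4, whose level was highest in neutrophils, fell there by 0.48 ± 0.04 (SE, adjusted p = 1.4e-06). In alveolar macrophages it stood at 162 and 166 CPM in WT LPS and 54.3 and 35.1 CPM in KO LPS (-1.83 ± 0.11 SE, adjusted p = 1.5e-08), beside the same neutrophil markers, whose part was not tested. The falls among Xist-only cells were -0.60 and -1.84.

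The DNA just before the start of 3 genes with these falls shows which letters of 2 known elements are there. The windows cover the 250 bases before the annotated transcription start, from RefSeq (GRCm38.p6), 5′ to 3′ on the gene's strand. Capitals mark matches to an interferon-stimulated response element, ISRE (GAAA, then 2 bases of any kind, then GAAA), or a kB element (GGGA, 2 bases of any kind, then TTCC), both searched on both strands. Isg15 and Cxcl10 stand for the interferon-inducible genes and Nfkbia for the NF-kB feedback genes. Isg15 (chr4:156200819-156201068, minus strand) held 3 overlapping ISRE matches. Cxcl10 (chr5:92348890-92349139, minus strand) held 1 ISRE match and then 1 kB match. Nfkbia (chr12:55492648-55492897, minus strand) held 1 kB match, read on the opposite strand.
Isg15: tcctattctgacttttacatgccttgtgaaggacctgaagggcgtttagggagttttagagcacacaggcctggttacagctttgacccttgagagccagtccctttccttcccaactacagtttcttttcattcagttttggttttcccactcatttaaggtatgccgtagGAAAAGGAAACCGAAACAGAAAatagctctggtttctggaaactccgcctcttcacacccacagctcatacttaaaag
Cxcl10: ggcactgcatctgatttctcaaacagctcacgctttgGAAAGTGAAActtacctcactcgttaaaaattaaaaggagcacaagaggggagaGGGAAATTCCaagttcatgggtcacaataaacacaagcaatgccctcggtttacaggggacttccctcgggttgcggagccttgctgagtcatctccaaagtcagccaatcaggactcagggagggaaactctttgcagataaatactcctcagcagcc
Nfkbia: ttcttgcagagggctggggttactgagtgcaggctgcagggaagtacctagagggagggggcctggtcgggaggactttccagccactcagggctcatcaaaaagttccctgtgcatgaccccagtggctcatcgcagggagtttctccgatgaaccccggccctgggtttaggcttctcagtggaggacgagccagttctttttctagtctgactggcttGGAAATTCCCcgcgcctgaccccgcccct

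Over all 27025 gene windows of this length, 3.04% held an ISRE match and 1.17% a kB match. These windows include genes that were not tested here, while shared genes come only from genes tested in at least 4 classes. The share of windows with a match among the tested genes was not counted. Of the genes shared lower over all cells 537 had a window, and 7.63% of these held an ISRE match and 2.05% a kB match. Among genes shared lower in Xist-only cells it was 12 of 76 (15.8%) for the ISRE and 3 of 76 (3.95%) for kB. The genes shared higher had 1.89% and 2.16% over all cells, and 1.61% and 0 of 62 in Xist-only cells. These are counts of letters in short windows and show no binding.

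Over all cells, more than 50% of the tested interferon-stimulated genes fell in 7 of 12 classes of KO LPS cells. The median of all tested genes lay between 0.00 and 0.04 in every class over all cells and between -0.01 and 0.03 in Xist-only cells. TMM scaling sets the bulk of genes near 0, so list medians are relative to the other genes of a class. Over all cells the TMM factor was higher in KO LPS by 0.294 (log2) in neutrophils and 0.23 in classical monocytes. This lowers the KO LPS values there by as much. The list has 36 genes. In neutrophils 33 of 34 fell and none rose (median log2 difference -0.70), in classical monocytes 34 of 34 (-0.75) and in alveolar macrophages 31 of 33 (-0.91). They fell as well in interstitial macrophages (26 of 34, median -0.59), endothelial cells (24 of 34, -0.39), dendritic cells (23 of 34, -0.55) and T cells (19 of 33, -0.36). Fewer passed in nonclassical monocytes (14 of 34 fell and 1 rose, -0.34) and NK cells (5 of 32 fell and 1 rose, -0.22), and none in stromal cells (0 of 31, -0.52) or platelets (0 of 30, -0.71). In B cells 16 of 33 rose and 4 fell (median 0.21). Of all genes tested, 17.1% fell in neutrophils, 21.3% in classical monocytes, 19.9% in alveolar macrophages, 5.69% in interstitial macrophages, 11% in endothelial cells, 6.73% in dendritic cells, 5.31% in T cells, 3.43% in nonclassical monocytes and 2.92% in NK cells, while 21.3% rose and 22.4% fell in B cells.

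Among Xist-only cells the interferon list kept its direction in 2 classes with most members past the test. In neutrophils 29 of 33 fell (median -0.63) and in alveolar macrophages 28 of 33 (-0.81), with none rising in either. In classical monocytes 9 rose and 10 fell of 34 (median -0.06). In T cells 5 rose and 1 fell of 33 (-0.02), and in endothelial cells 1 rose and 8 fell of 34 (-0.17). In B cells 18 of 33 rose and 4 fell (0.30). Of all genes tested in Xist-only cells, 10.9% fell in neutrophils and 8.3% in alveolar macrophages. In classical monocytes 7.63% rose and 5.82% fell, in T cells 1.62% and 1.47%, in endothelial cells 2.46% and 1.95%, and in B cells 18.4% and 19%. The guanylate-binding and immunity-related GTPases with Cxcl9, Cxcl10, Irf1 and others, a list of 23 interferon-gamma genes, fell in neutrophils (18 of 22, median -0.69; 12 of 20, -0.43 in Xist-only cells). In B cells 14 of 19 rose (median 0.47; 14 of 19, 0.62 in Xist-only cells).

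NF-kB feedback genes, a list of 22 with Nfkbia, Tnfaip3 and Bcl3, were lower over all cells in classical monocytes (20 of 22, median -0.61), alveolar macrophages (18 of 22, -0.55), neutrophils (17 of 22, -0.38), endothelial cells (13 of 22, -0.45) and B cells (13 of 22, -0.31). In Xist-only cells the fall held in neutrophils (11 of 22, -0.24). In Xist-only alveolar macrophages 7 rose and 3 fell (median -0.01), in classical monocytes 4 rose and 3 fell (0.04), and in endothelial cells none passed (0.07). Of all genes tested there, 10.9% fell in neutrophils, 9.9% rose and 8.3% fell in alveolar macrophages, and 7.63% rose and 5.82% fell in classical monocytes. The 22 NF-kB cytokines and chemokines followed: over all cells 14 of 18 fell in classical monocytes (-0.80), 14 of 20 in neutrophils (-0.41) and 12 of 18 in alveolar macrophages (-0.46). In Xist-only cells 9 of 19 fell in neutrophils (-0.32), and in alveolar macrophages 5 rose and 4 fell of 18 (-0.03).

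Mitochondrially encoded transcripts were higher in KO LPS cells of 10 classes. Of the 13 genes, between 9 and 12 rose in neutrophils, macrophages, monocytes, dendritic cells, B cells, T cells and NK cells, 4 rose in endothelial cells, and none fell in any class. Of all genes tested, 1748 of 10187 rose in neutrophils, 2039 of 11614 in alveolar and 395 of 7411 in interstitial macrophages. It was 2139 of 10169 in classical and 244 of 6906 in nonclassical monocytes, and 546 of 8935 in dendritic cells. In B cells 2049 of 9626 rose, in T cells 261 of 8420, in NK cells 190 of 7169 and in endothelial cells 794 of 9414. The medians ran from 0.21 in classical monocytes to 0.64 in dendritic cells. In Xist-only cells 11 of 13 rose in B cells (0.48), 12 in alveolar macrophages (0.53), 11 in T cells (0.58) and 9 in neutrophils (0.34). Of all genes tested in Xist-only cells, 18.4% rose in B cells, 9.9% in alveolar macrophages and 1.62% in T cells. In neutrophils 18.2% were called in either direction. The mitochondrial share of a cell, a common measure of cell quality, moved with the mitochondrial transcripts: in B cells its median was 2.85% and 3.47% in WT LPS and 4.26% and 4.60% in KO LPS. Its part in the other differences was not tested.

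**Figure D4:**
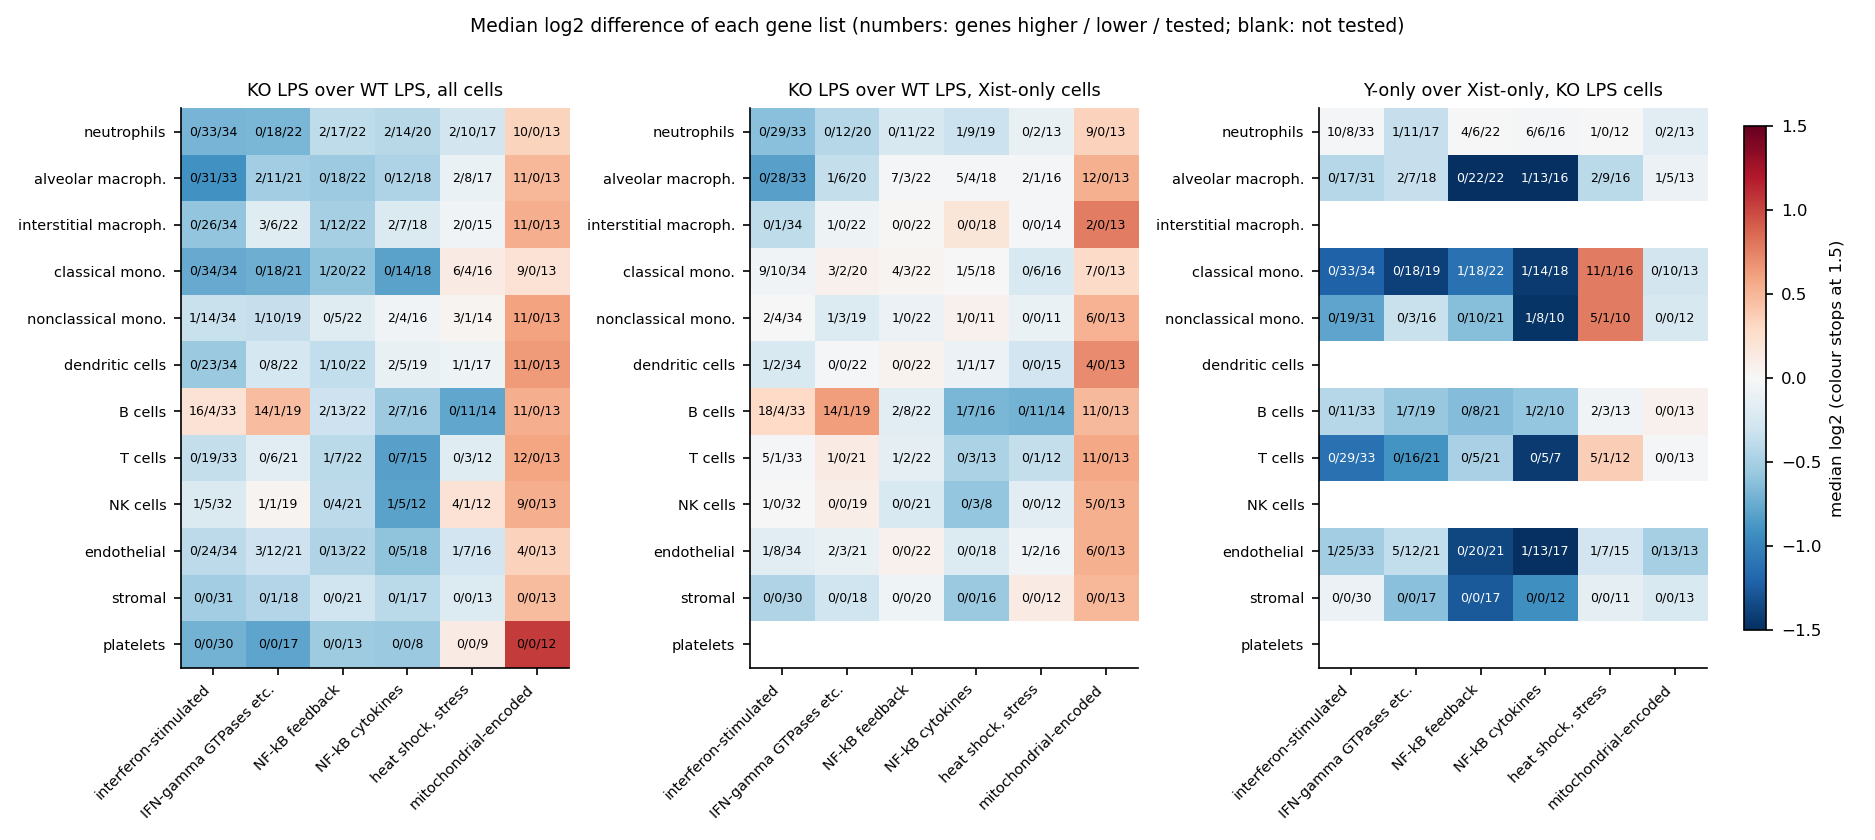
Median log2 difference of 6 gene lists (columns) in each cell class (rows), for KO LPS over WT LPS in all cells (left) and in Xist-only cells (middle), and for Y-only over Xist-only cells within KO LPS (right); red is higher, blue lower, and each field gives the genes higher, lower and tested. Interferon-stimulated genes are blue in neutrophils (-0.70 and -0.63) and alveolar macrophages (-0.91 and -0.81) in both left fields, red in B cells (0.21 and 0.30), and near 0 in Xist-only classical monocytes (-0.06).

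Within the KO LPS libraries, Y-only and Xist-only cells of the same class differed in many genes. With the library as a block, edgeR called 1899 genes higher and 2049 lower in Y-only classical monocytes (48.3% of those tested), 2461 and 2643 in alveolar macrophages (47.8%), 1535 and 1766 in endothelial cells (40.9%), 1120 and 891 in neutrophils (31.7%), 320 and 397 in nonclassical monocytes (17.9%; 7.98% and 9.9%), 227 and 475 in T cells (11.9%; 3.84% and 8.03%) and 320 and 409 in B cells (9.8%; 4.3% and 5.5%). Stromal cells had 0 calls, with 381 genes at an unadjusted p under 0.05, and the other classes had too few Y-only cells. Every NF-kB feedback gene tested was lower in Y-only alveolar macrophages (22 of 22, median -1.79), as were 20 of 21 in endothelial cells (-1.36) and 18 of 22 in classical monocytes (-1.11). In neutrophils 4 were higher and 6 lower (0.01). Both sets of cells lie in the same 2 libraries, so this contrast shares its Xist-only cells with the comparison above, and sex, animal and response to LPS cannot be told apart in it.

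Tnf in alveolar macrophages showed how the 2 kinds of cell add up. It stood at 242 and 245 CPM in Xist-only cells of the WT LPS libraries, at 438 and 384 CPM in Xist-only cells of KO LPS and at 44.0 and 36.8 CPM in Y-only cells of KO LPS. Over all cells the KO difference was -0.18 ± 0.05 (SE, adjusted p = 0.012), a small fall that did not pass without either WT LPS library (adjusted p = 0.056 and 0.054). Among Xist-only cells it was 0.76 (adjusted p = 4.9e-06), a rise, and the direction turned. The vehicle levels, scaled with all 6 libraries, were 15.4 CPM in the WT and 10.8 CPM in the KO vehicle library. Cxcl10 in classical monocytes did the same: 6887 and 7316 CPM in WT LPS Xist-only cells, 10002 and 9982 CPM in KO LPS Xist-only cells and 1157 and 1273 CPM in KO LPS Y-only cells. Its difference was -0.89 ± 0.06 (SE, adjusted p = 4.0e-08) over all cells and 0.50 (adjusted p = 6.0e-05) among Xist-only cells.

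**Figure D5:**
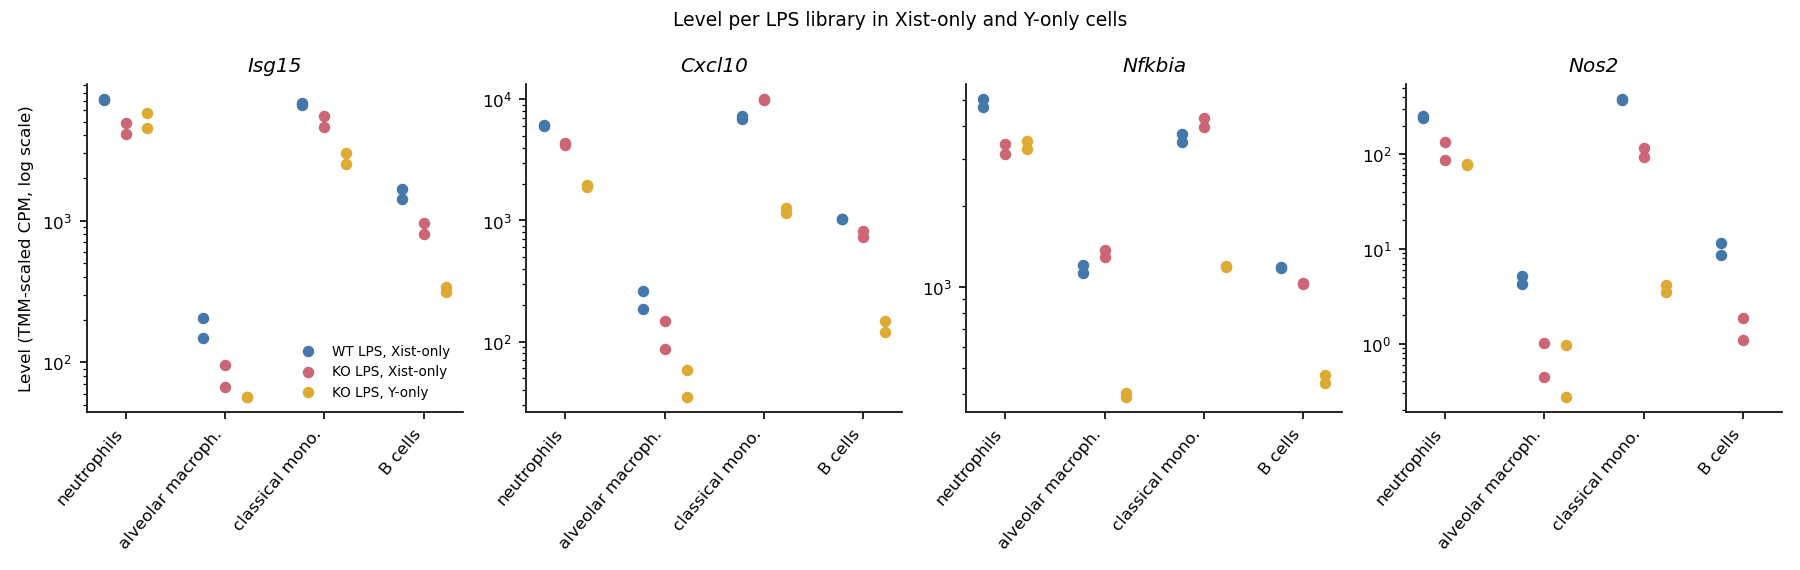
Level (y axis, CPM after TMM scaling, log scale; a separate scale in each panel) of Isg15, Cxcl10, Nfkbia and Nos2 in Xist-only cells of WT LPS, Xist-only cells of KO LPS and Y-only cells of KO LPS in 4 cell classes (x axis), with 1 point per library. In classical monocytes Cxcl10 is above WT LPS in KO LPS Xist-only cells (10002 and 9982 CPM) and far below in Y-only cells (1157 and 1273 CPM), while Nos2 is below WT LPS in both (93.3 and 117 and 4.12 and 3.49 CPM).

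Neutrophils of KO LPS lungs had less of the inducible nitric oxide synthase Nos2. It stood at 233 and 223 CPM in the WT LPS libraries and 89.0 and 88.2 CPM in the KO LPS libraries, a difference of -1.36 ± 0.04 (SE, adjusted p = 1.2e-10), with no overlap between genotypes. Among Xist-only cells the difference was -1.09 (adjusted p = 4.0e-07). The arginase Arg2, which uses the same substrate, fell as well, by 0.78 ± 0.04 (SE, adjusted p = 4.4e-09), and by a log2 difference of -0.63 among Xist-only cells. Nos2 had no UMI in vehicle neutrophils of either genotype.

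The interferon genes of neutrophils fell together. Irf7, which amplifies type I interferon, stood at 1932 and 1931 CPM in WT LPS and 1037 and 1085 CPM in KO LPS (-0.86 ± 0.04 SE, adjusted p = 4.3e-09). Ifit1, which binds viral RNA, stood at 5298 and 5136 CPM in WT LPS and 2602 and 2673 CPM in KO LPS (-0.98 ± 0.04 SE, adjusted p = 3.1e-09). Ifi27l2a stood at 921 and 879 CPM in WT LPS and 364 and 366 CPM in KO LPS (-1.30 ± 0.04 SE, adjusted p = 1.2e-10), and the GTPase Gbp3 at 221 and 226 CPM in WT LPS and 103 and 104 CPM in KO LPS (-1.11 ± 0.04 SE, adjusted p = 4.2e-10). The libraries of the 2 genotypes did not overlap for any of these 4 genes, and each fall passed in Xist-only cells (-0.88, -0.79, -1.28 and -1.07). The fall of Ifit1 was larger in neutrophils than the mean of the other classes (a difference of -0.52, adjusted p = 0.0028 on the log2 scale), and so was that of Ifi27l2a (-0.55, adjusted p = 0.0014).

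Chemokines and feedback genes of neutrophils were lower, and Tnf did not pass. Ccl4, a macrophage inflammatory protein, stood at 10495 and 10600.0 CPM in WT LPS and 5008 and 4782 CPM in KO LPS (-1.11 ± 0.05 SE, adjusted p = 2.5e-09; -0.61 among Xist-only cells). Cxcl10, the CXCR3 ligand, stood at 6984 and 6764 CPM in WT LPS and 3336 and 3196 CPM in KO LPS (-1.07 ± 0.05 SE, adjusted p = 2.5e-09; -0.50 among Xist-only cells). Il1b stood at 10978 and 11205 CPM in WT LPS and 7633 and 7862 CPM in KO LPS (-0.52 ± 0.05 SE, adjusted p = 1.7e-06; -0.52). These genes were lower in both KO LPS libraries than in either WT LPS library. Il10, the anti-inflammatory cytokine, fell too and stood at 60.1 and 60.6 CPM in WT LPS and 20.7 and 21.2 CPM in KO LPS (-1.53 ± 0.06 SE, adjusted p = 7.8e-10; -0.77). Nfkbia, the inhibitor of NF-kB, fell by 0.72 ± 0.05 (SE, adjusted p = 6.4e-08), the RNase Zc3h12a by 0.88 ± 0.04 (SE, adjusted p = 2.4e-09) and Socs3 by 0.79 ± 0.04 (SE, adjusted p = 8.8e-09), and all 3 fell among Xist-only cells (-0.56, -0.67 and -0.51). Socs1 fell over all cells by 0.66 ± 0.05 (SE, adjusted p = 1.3e-07), with a log2 difference of -1.01 between Y-only and Xist-only cells, and among Xist-only cells it did not pass (-0.15, adjusted p = 0.14). Tnf stood at 168 and 177 CPM in WT LPS and 168 and 176 CPM in KO LPS, a difference of -0.01 ± 0.04 (SE, adjusted p = 0.88), and of -0.21 (adjusted p = 0.073) among Xist-only cells.

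Further neutrophil genes are granule, lysosome and metabolic genes. Neutrophil cluster 7, led by the granule genes Ltf, Camp and Ngp, was 10.1% and 10.6% of neutrophils in WT LPS and 19.3% and 18.4% in KO LPS. Camp, an antimicrobial peptide of secondary granules, did not pass over all cells (-0.12 ± 0.05 SE, adjusted p = 0.083) and rose among Xist-only cells (0.68, adjusted p = 9.7e-07). The small fall over all cells passed without the low-count filter (-0.14), with the replicate block (-0.12), with all 6 libraries in the fit (-0.15), without the first KO LPS library (-0.17), with DESeq2 (-0.15) and with classes from single-cell markers (-0.23). Lactoferrin, Ltf, rose among Xist-only cells too (0.52, adjusted p = 6.7e-06). The gelatinase Mmp9 rose over all cells (0.69 ± 0.04 SE, adjusted p = 1.1e-08) and did not pass among Xist-only cells (-0.18, adjusted p = 0.062). Lyst, a lysosome traffic gene, stood at 46.8 and 40.7 CPM in WT LPS and 145 and 156 CPM in KO LPS (1.77 ± 0.06 SE, adjusted p = 2.9e-10; 0.50 among Xist-only cells). The glucose transporter Slc2a3 rose (1.1 ± 0.06 SE, adjusted p = 9.3e-09; 0.90 among Xist-only cells) while the glycolytic activator Pfkfb3 fell (-0.93 ± 0.04 SE, adjusted p = 1.4e-09; -0.78). The ferrireductase Steap4 and Schip1 fell by 1.06 ± 0.04 (SE, adjusted p = 1.1e-09) and 1.37 ± 0.04 (SE, adjusted p = 1.1e-10), with -1.34 and -0.91 among Xist-only cells.

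Each neutrophil cluster was also tested alone in Xist-only cells. Interferon-stimulated genes fell in all 4: 20 of 32 in cluster 0, led by Ccl3 and Ccl4 (190 genes called, 5.22%), 23 of 33 in cluster 2, led by Retnlg and Mmp8 (383, 7.76%), 20 of 33 in cluster 4, led by stefin A genes (269, 5.84%), and 18 of 32 in the granule cluster 7 (208, 4.38%). The medians were -0.54, -0.49, -0.55 and -0.61. Saa3, Nos2, Irf7, Slfn4, Isg15 and Ifit1 each fell in all 4 clusters. Cxcl10 fell in clusters 2 and 7 and did not pass in clusters 0 and 4, and Ccl4 and Socs1 passed in none. Camp passed as a rise in cluster 2 (0.32, adjusted p = 0.041) and in no other, while Ltf rose in none and fell in cluster 4 (-1.21, adjusted p = 0.0021).

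Of the genes called in neutrophils, 225 (2.21% of those tested) belonged to neutrophils alone: they passed in no other class, and their difference from the other classes passed a limma test on log2(CPM + 1) or no other class was tested. In Xist-only cells 56 did (0.783%). Of these 225 and 56 genes, 98 and 17 were tested in no other class, so for them no difference between classes was tested. Tesc, a calcium-binding regulator, stood at 0.575 and 1.30 CPM in WT LPS and 7.27 and 6.11 CPM in KO LPS (2.89 ± 0.26 SE, adjusted p = 1.0e-06; 2.85 among Xist-only cells), 1.79 (adjusted p = 0.0013) above the mean of the other classes. Styk1, a receptor kinase, fell (-0.90 ± 0.10 SE, adjusted p = 1.0e-05), -1.20 (adjusted p = 0.00087) against the others, but did not pass among Xist-only cells (0.34, adjusted p = 0.24). The phosphodiesterase Pde7b fell among Xist-only cells (-1.69, adjusted p = 0.00042), -1.34 (adjusted p = 0.033) against the others.

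Alveolar macrophages, the resident phagocytes of the air spaces, split by sex mark. Cluster 6, led by Ch25h, Car4 and Marco, held 89.6% and 88.8% of them in WT LPS and 45.4% and 49.3% in KO LPS. Cluster 3, which also held most vehicle macrophages (1679 WT and 1336 KO cells), held 2.39% and 2.94% and 44.8% and 42.2%. In KO LPS 783 Xist-only and 90 Y-only cells lay in cluster 6, and 39 and 652 in cluster 3. Differences over all KO LPS alveolar macrophages therefore mix both clusters.

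The interferon genes of alveolar macrophages fell over all cells and in Xist-only cells. Neutrophil markers fell in the same class (8 of 10, median -1.20; 9 of 10, -1.29 in Xist-only cells), and their part in these falls was not tested. Irf7 stood at 75.5 and 63.8 CPM in WT LPS and 25.05 and 23.54 CPM in KO LPS (-1.52 ± 0.08 SE, adjusted p = 6.7e-09; -1.40 among Xist-only cells). Rsad2 (viperin) stood at 133 and 117 CPM in WT LPS and 43.6 and 33.6 CPM in KO LPS (-1.67 ± 0.09 SE, adjusted p = 5.0e-09; -1.59). Usp18, the protease that removes Isg15 and restrains the interferon receptor, stood at 18.0 and 17.9 CPM in WT LPS and 4.64 and 4.60 CPM in KO LPS (-1.95 ± 0.14 SE, adjusted p = 5.0e-08; -1.91). No library of 1 genotype overlapped the other in these genes. The fall of Rsad2 differed from the mean of the other classes by -1.22 (adjusted p = 1.6e-05) over all cells and -1.44 (adjusted p = 0.0023) among Xist-only cells.

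The chemokines Ccl17 and Ccl5 fell in alveolar macrophages. Ccl17, a CCR4 ligand, stood at 116 and 122 CPM in the WT LPS libraries and 26.5 and 28.5 CPM in the KO LPS libraries, a difference of -2.12 ± 0.06 (SE, adjusted p = 1.8e-11). Ccl5 stood at 211 and 193 CPM in WT LPS and 59.97 and 39.6 CPM in KO LPS (-1.98 ± 0.11 SE, adjusted p = 7.0e-09). Neither overlapped between genotypes, both passed among Xist-only cells (-1.49 and -2.12), and both differed from the other classes (-2.80, adjusted p = 5.9e-07 and -1.51, adjusted p = 0.00046). Nos2 and Arg2 were low in these cells and fell (-1.93 and -1.88; adjusted p = 4.8e-05 and 7.3e-08), also among Xist-only cells (-2.57 and -1.34).

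The NF-kB genes of alveolar macrophages turned with the choice of cells. Il1a went from -0.24 ± 0.07 (SE, adjusted p = 0.0084) over all cells to 0.79 (adjusted p = 3.6e-05) among Xist-only cells, the A20 gene Tnfaip3 from -0.46 ± 0.05 (SE, adjusted p = 6.8e-06) to 0.41 (adjusted p = 0.00038), Nfkbia from -0.47 ± 0.06 (SE, adjusted p = 1.2e-05) to 0.19 (adjusted p = 0.035), and Socs3 from -0.71 ± 0.06 (SE, adjusted p = 2.2e-07) to 0.20 (adjusted p = 0.02). The fall of Il1a over all cells did not pass without the first WT LPS library (-0.14, adjusted p = 0.16). Il1b fell over all cells (-0.88 ± 0.06 SE, adjusted p = 3.4e-08) and did not pass among Xist-only cells (-0.01, adjusted p = 0.94). The neutrophil-attracting Cxcl3 fell in both sets, at -1.60 ± 0.07 (SE, adjusted p = 4.1e-10) and -0.52 (adjusted p = 0.0012), with 1442 and 1272 CPM in WT LPS Xist-only, 1050.5 and 836 CPM in KO LPS Xist-only and 11.5 and 12.8 CPM in KO LPS Y-only cells. Socs1 was low and fell in both (-1.16 ± 0.15 SE, adjusted p = 3.0e-05 and -0.69, adjusted p = 0.019). Nfkbia in Y-only cells, at 403 and 388 CPM, lay between the Xist-only cells (1379 and 1291 CPM) and the vehicle level (90.5 CPM in the WT and 88.0 CPM in the KO vehicle library).

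Some genes of alveolar macrophages rose. The immediate-early factor Egr1 rose (0.61 ± 0.05 SE, adjusted p = 3.8e-07), also among Xist-only cells (0.97, adjusted p = 4.8e-08). The linker histone gene Hist1h1b rose in both (1.06 and 1.32). Dhrs3, a retinal reductase, rose over all cells (1.60 ± 0.07 SE, adjusted p = 4.1e-10) and did not pass among Xist-only cells (-0.06, adjusted p = 0.65); its level in KO LPS was higher in Y-only than in Xist-only cells (219 and 214 against 40.7 and 41.9 CPM). In all, 362 genes (3.12%) belonged to alveolar macrophages, and 127 (1.16%) in Xist-only cells, of which 200 and 104 were tested in no other class. Among them Tcim fell (-2.0 ± 0.23 SE, adjusted p = 7.8e-06; -2.47, adjusted p = 0.00038 against the other classes; -1.40 among Xist-only cells), and the lipid phosphodiesterase Napepld rose (1.65 ± 0.23 SE, adjusted p = 5.5e-05; 1.88, adjusted p = 0.00022) but did not pass among Xist-only cells (-0.71, adjusted p = 0.27).

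Classical monocytes split in the same way. Cluster 5, led by Ptx3 and Ifi205, held 97.9% and 98.1% of them in WT LPS and 44.3% and 46.0% in KO LPS, and cluster 18, led by F13a1, held the others. KO LPS had 415 Xist-only and 86 Y-only cells in cluster 5, and 35 and 513 in cluster 18. Over all cells Nos2 stood at 402 and 348 CPM in the WT LPS libraries and 29.6 and 41.5 CPM in the KO LPS libraries (-3.45 ± 0.11 SE, adjusted p = 3.0e-10). Among Xist-only cells it still fell (-1.86, adjusted p = 2.0e-08), at 371 and 378 CPM in WT LPS, 93.3 and 117 CPM in KO LPS and 4.12 and 3.49 CPM in Y-only cells. Arg2 fell with it (-1.81 ± 0.12 SE, adjusted p = 4.0e-08 and -0.76, adjusted p = 0.0045).

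Inflammatory genes of classical monocytes were lower over all cells and mostly not among Xist-only cells. Nfkbia stood at 3802 and 3878 CPM in WT LPS and 2097 and 2212 CPM in KO LPS (-0.83 ± 0.05 SE, adjusted p = 1.3e-08) and did not pass among Xist-only cells (0.19, adjusted p = 0.054). Socs3 (-0.78 ± 0.05 SE, adjusted p = 2.7e-08 against 0.11, adjusted p = 0.23), Socs1 (-0.95 ± 0.06 SE, adjusted p = 4.6e-08 against 0.08, adjusted p = 0.57), Il1b (-0.86 ± 0.05 SE, adjusted p = 3.2e-08 against 0.18, adjusted p = 0.13) and Tnf (-1.02 ± 0.09 SE, adjusted p = 1.4e-06 against -0.38, adjusted p = 0.089) did likewise. The cytokine Il6 fell over all cells (-0.74 ± 0.08 SE, adjusted p = 6.6e-06), at 49.4 and 52.4 CPM in WT LPS and 30.2 and 30.6 CPM in KO LPS. Among Xist-only cells Il6 did not pass (-0.07, adjusted p = 0.81). Ifit3 turned, from -0.59 ± 0.05 (SE, adjusted p = 9.9e-07) over all cells to 0.74 (adjusted p = 2.8e-06) among Xist-only cells. Il15, a growth factor of NK cells, did not pass over all cells (-0.23 ± 0.10 SE, adjusted p = 0.071) and rose among Xist-only cells (1.30, adjusted p = 5.3e-06). Over all cells it passed as a fall without the low-count filter (-0.25) and without the first KO LPS (-0.33) or the first WT LPS library (-0.38). The inhibitory receptor Havcr2 (TIM-3) rose in both (1.41 ± 0.11 SE, adjusted p = 3.3e-07 and 1.95, adjusted p = 5.3e-06). Ptx3, a soluble pattern receptor, fell in both (-2.28 ± 0.07 SE, adjusted p = 3.0e-10 and -0.51, adjusted p = 0.005), as did the collagenase Mmp13 (-2.85 and -1.25) and the granulocyte growth factor Csf3 (-2.75 and -1.32).

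Rises of classical monocytes over all cells were partly absent from Xist-only cells. Lipoprotein lipase, Lpl, stood at 16.5 and 11.5 CPM in WT LPS and 109.7 and 95.8 CPM in KO LPS (2.86 ± 0.12 SE, adjusted p = 9.3e-10), with 25.3 and 27.5 CPM in Xist-only and 161 and 126 CPM in Y-only KO LPS cells, and it did not pass among Xist-only cells (0.71, adjusted p = 0.086). The inhibitory receptor Lair1 rose by 2.75 ± 0.10 (SE, adjusted p = 4.8e-10), and among Xist-only cells by 0.70 (adjusted p = 0.035). Ddit4, a stress and glucocorticoid target that restrains mTOR, rose in both (2.49 ± 0.11 SE, adjusted p = 1.4e-09 and 1.49, adjusted p = 0.00052). The glycolytic genes showed the split: 15 of 22 in the hypoxia and glycolysis list rose and 3 fell over all cells (median 0.45, for example Tpi1, 1.09 ± 0.07 SE, adjusted p = 4.6e-08), and none rose and 3 of 19 fell among Xist-only cells. The chaperone Hsph1 rose over all cells (1.67 ± 0.10 SE, adjusted p = 2.5e-08) and did not pass among Xist-only cells (0.47, adjusted p = 0.17). In all 363 genes (3.57%) belonged to classical monocytes, and 34 (0.383%) in Xist-only cells, of which 27 and 5 were tested in no other class. Smad3, a signal carrier of TGF-beta, rose (3.16 ± 0.29 SE, adjusted p = 1.1e-06; 2.44, adjusted p = 8.6e-08 against the others) and was not tested in Xist-only cells, and Csf3 in Xist-only cells fell beyond the others (-1.55, adjusted p = 0.038).

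B cells kept most of their calls among Xist-only cells. Of their interferon-stimulated genes 16 of 33 rose and 4 fell over all cells, and 18 rose and 4 fell in Xist-only cells. Their cluster make-up differed too. Cluster 8, led by the activation genes Cd83, Myc and Mir155hg, was 67.0% and 68.6% of B cells in WT LPS and 41.0% and 44.9% in KO LPS. Cluster 16 (Ms4a1, Vpreb3, Spib) was 18.6% and 16.7% against 30.7% and 26.7%, cluster 25 (Rag1, Vpreb3, immature B cell genes) 13.7% and 13.3% against 20.2% and 16.1%, and cluster 1, which held most vehicle B cells, 0.690% and 1.37% against 8.10% and 12.3%. A difference over all B cells therefore mixes a change of make-up with changes within clusters.

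Ifit2, an RNA-binding interferon target, stood in B cells at 161 and 152 CPM in the WT LPS libraries and 449.6 and 474 CPM in the KO LPS libraries, a difference of 1.56 ± 0.08 (SE, adjusted p = 1.3e-11). Ifit3 stood at 364 and 343 CPM in WT LPS and 791 and 803 CPM in KO LPS (1.17 ± 0.08 SE, adjusted p = 2.5e-10), and the RNA sensor Ddx58 (RIG-I) at 126 and 134 CPM in WT LPS and 276 and 263 CPM in KO LPS (1.05 ± 0.08 SE, adjusted p = 3.1e-09). KO LPS libraries were above WT LPS libraries in all 3 genes. Each differed from the mean of the other classes, by 1.70 (adjusted p = 1.1e-07), 1.67 (adjusted p = 1.8e-07) and 1.17 (adjusted p = 3.4e-06), and each rose among Xist-only cells (1.72, 1.35 and 1.14). With classes from single-cell markers alone, Ifit3 and Ddx58 did not pass (0.40 and 0.48). Isg15 and Slfn4, both highest in neutrophils, fell in B cells beside 8 of 10 neutrophil markers (-0.93 and -1.39; adjusted p = 1.8e-07 and 8.9e-11), as did Cxcl10 (-0.59 ± 0.08 SE, adjusted p = 4.5e-06), with -0.74, -1.38 and -0.34 among Xist-only cells. The part of neutrophil RNA in these falls was not tested.

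Socs1 was slightly higher in B cells of KO LPS. It stood at 295 and 289 CPM in WT LPS and 336 and 331 CPM in KO LPS (0.19 ± 0.08 SE, adjusted p = 0.042), a call that ended without any 1 of the 4 libraries (adjusted p between 0.093 and 0.23) and with RLE scaling, DESeq2, no low-count filter or all 6 libraries in the fit. Among Xist-only cells the rise was 0.47 (adjusted p = 9.8e-05), and it differed from the other classes by 0.66 (adjusted p = 2.1e-05) over all cells and 0.62 (adjusted p = 0.00017) in Xist-only cells. Within the clusters it did not pass in any, and with classes from single-cell markers alone it was -0.25. Socs3 fell over all cells (-0.27 ± 0.08 SE, adjusted p = 0.011; not without the first WT LPS or the second KO LPS library, adjusted p = 0.052 and 0.061) and did not pass among Xist-only cells (-0.14, adjusted p = 0.23). Nfkbia did the same (-0.31 ± 0.07 SE, adjusted p = 0.0014 and -0.15, adjusted p = 0.12), and Traf1, an NF-kB target that binds TNF receptors, fell in both (-0.98 ± 0.08 SE, adjusted p = 5.4e-09 and -0.78, adjusted p = 5.2e-07).

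Genes of growth and protein folding fell in B cells. The heat-shock list had 11 of 14 lower and none higher (median -0.78; the same counts and -0.71 in Xist-only cells). Hspa8, the constitutive Hsp70, stood at 2447 and 2276 CPM in WT LPS and 1102 and 1155 CPM in KO LPS (-1.07 ± 0.08 SE, adjusted p = 9.9e-10; -1.05 among Xist-only cells), and the mitochondrial co-chaperonin Hspe1 at 857 and 800.0 CPM in WT LPS and 435 and 436 CPM in KO LPS (-0.93 ± 0.07 SE, adjusted p = 4.4e-09; -0.90). Ribosomal protein genes fell in 73 of 81 cases (median -0.38; 72 of 81, -0.36 in Xist-only cells), and the hypoxia and glycolysis list in 14 of 23 (median -0.51; 13 of 23, -0.53), with Ldha, lactate dehydrogenase, at 606 and 565 CPM in WT LPS and 294 and 311 CPM in KO LPS (-0.96 ± 0.08 SE, adjusted p = 4.4e-09; -0.79 among Xist-only cells). The nuclear envelope gene Lmna stood at 129 and 89.9 CPM in WT LPS and 10.96 and 16.23 CPM in KO LPS (-3.08 ± 0.18 SE, adjusted p = 5.1e-11), the calcium-binding S100a6 at 831 and 447 CPM in WT LPS and 105 and 182 CPM in KO LPS (-2.20 ± 0.20 SE, adjusted p = 2.4e-08), and the plasma-cell-linked repressor Zbtb32 at 87.2 and 48.1 CPM in WT LPS and 14.1 and 14.5 CPM in KO LPS (-2.27 ± 0.21 SE, adjusted p = 2.6e-08). In these 3 genes WT LPS libraries lay apart from each other and above both KO LPS libraries. Among Xist-only cells the falls were -3.15, -2.36 and -2.01.

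Genes of antigen presentation rose in B cells. With classes from single-cell markers alone H2-Oa (0.66), Polm (1.11), Hspe1 (-0.48) and Traf1 (-0.83) did not pass. The MHC class II list had 8 of 10 higher and none lower (median 0.48; 7 of 10, 0.42 in Xist-only cells), with H2-Oa, a modulator of peptide loading, at 38.05 and 39.4 CPM in WT LPS and 85.9 and 88.4 CPM in KO LPS (1.17 ± 0.11 SE, adjusted p = 4.0e-08; 1.16 among Xist-only cells). The linker histones Hist1h1c and Hist1h1e stood at 97.8 and 101 CPM in WT LPS and 309 and 371 CPM in KO LPS (1.76 ± 0.09 SE, adjusted p = 2.2e-11) and at 215 and 236 CPM in WT LPS and 726 and 724 CPM in KO LPS (1.69 ± 0.08 SE, adjusted p = 5.0e-12). The DNA polymerase Polm, which acts in antigen receptor joining, rose as well (1.65 ± 0.13 SE, adjusted p = 2.5e-09). Among Xist-only cells these 3 rose by 1.75, 1.74 and 1.83. The other classes had fewer calls among Xist-only cells than over all cells. The part of this in the counts of genes called in B cells alone was not tested. B cells had 536 genes of their own (5.57%) and 1033 in Xist-only cells (11.2%), of which 67 and 89 were tested in no other class. Among these Eya1 rose in Xist-only cells (2.07, adjusted p = 2.4e-07, 3.50, adjusted p = 0.018 against the others), Rgs16 rose (1.54 ± 0.36 SE, adjusted p = 0.0015, 2.40, adjusted p = 0.0014 against the others; 2.10 among Xist-only cells), and the pseudokinase Trib3, a stress-response gene, fell in Xist-only cells (-4.01, adjusted p = 3.2e-06, -3.03, adjusted p = 0.00035). Tnf, at 19.8 and 24.9 CPM in WT LPS and 7.97 and 8.98 CPM in KO LPS, fell (-1.40 ± 0.22 SE, adjusted p = 2.8e-05; -1.18 among Xist-only cells).

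Tested alone in Xist-only cells, the cluster 8 gave 893 higher and 854 lower genes (21.8% of 8008), cluster 16 gave 182 (3.78%) and cluster 25 gave 19 (0.427%). Interferon-stimulated genes rose in cluster 8 (17 of 33, median 0.38) and cluster 16 (7 of 32, 0.18), and 2 rose and 1 fell of 31 in cluster 25. Ifit2, Ifit3, Hist1h1c and Hist1h1e rose in all 3. Ribosomal protein genes fell in cluster 8 (47 of 81) and in neither of the others, and heat-shock genes fell in 9 of 13 cases in cluster 8. Lmna and Zbtb32 fell in cluster 8, and were not tested in the other 2. H2-Oa rose in cluster 8 (1.80, adjusted p = 3.0e-07) and did not pass in cluster 16 (0.07, adjusted p = 0.93).

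In T cells the granzyme Gzma, a killing protease, stood at 1352 and 874 CPM in the WT LPS libraries and 235 and 189 CPM in the KO LPS libraries, a difference of -2.38 ± 0.14 (SE, adjusted p = 1.3e-09), and of -2.15 among Xist-only cells. The lipase Lipg fell as well (-2.08 ± 0.21 SE, adjusted p = 1.6e-06; -1.77 among Xist-only cells). Gzma is also a marker of the NK class, whose share was lower over all cells. Lipg was listed here with neutrophil activation genes, and neutrophil markers fell in T cells. The part of RNA from other cells in both falls was not tested. Dapl1 and Igfbp4, both genes of naive T cells, rose (1.45 ± 0.13 SE, adjusted p = 3.0e-07 and 1.23 ± 0.12 SE, adjusted p = 9.4e-07; 0.95 and 0.77 among Xist-only cells), and the checkpoint ligand Cd200 rose (0.76 ± 0.18 SE, adjusted p = 0.01; 1.34, adjusted p = 0.0017 among Xist-only cells; 0.56, adjusted p = 0.078, without the second KO LPS library). The naive-type cluster 9, led by Lef1, Cd4 and Tcf7, was 3.09% and 1.66% of T cells in WT LPS and 11.4% and 9.87% in KO LPS, and 44 of its KO LPS cells were Y-only and 13 Xist-only, so make-up and level cannot be told apart over all cells. Oas1a, an antiviral synthetase, fell in both sets (-1.5 ± 0.20 SE, adjusted p = 4.3e-05 and -1.15, adjusted p = 0.013). Ifit2 did not pass over all cells (0.08 ± 0.09 SE, adjusted p = 0.66) and rose among Xist-only cells (0.67, adjusted p = 0.0021). Cxcl10 fell over all cells (-0.70 ± 0.08 SE, adjusted p = 7.0e-06) and did not pass among Xist-only cells (-0.11, adjusted p = 0.64), and Socs1 passed in neither (-0.17 ± 0.09 SE, adjusted p = 0.28 and 0.15, adjusted p = 0.54). T cells had 23 genes of their own (0.273%), Dapl1 and Igfbp4 among them, and 5 in Xist-only cells (0.067%). Of these 23 and 5 genes, 17 and 4 were tested in no other class.

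In NK cells the chemokine Ccl9 stood at 81.9 and 94.5 CPM in WT LPS and 21.6 and 13.4 CPM in KO LPS (-2.24 ± 0.25 SE, adjusted p = 2.5e-05; -2.23 among Xist-only cells). The cytokine receptor Il7r rose (1.66 ± 0.30 SE, adjusted p = 0.0017; 2.03, adjusted p = 0.0089), and so did the activating receptor Cd226 (DNAM-1) over all cells (1.82 ± 0.26 SE, adjusted p = 0.00028; 1.43, adjusted p = 0.075, not past the threshold, in Xist-only cells). Il7r is low in mature NK cells and common in innate lymphoid cells, and no marker of the latter was used to divide the class. Camk2n1, an inhibitor of CaM kinase, belonged to NK cells (-1.54 ± 0.24 SE, adjusted p = 0.00052; -1.65, adjusted p = 0.0072 against the others; -1.79 among Xist-only cells), 1 of 12 such genes (0.167%; 4 in Xist-only cells, 0.0644%). Of these 12 and 4 genes, 7 and 3 were tested in no other class. Ribosomal protein genes, lower in B cells, had 29 of 81 higher and none lower here over all cells (median 0.28), and none passed among Xist-only cells. Of all genes tested in NK cells, 190 of 7169 rose over all cells.

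Endothelial cells held a cluster that WT LPS lacked. Cluster 37, led by Ly6c1, Egfl7 and Kit, held 30% and 31.4% of KO LPS endothelial cells and 0 of those in WT LPS, with 144 Y-only cells and 1 Xist-only cell. Clec1a, a C-type lectin, stood at 18.9 and 17.2 CPM in WT LPS and 148 and 138 CPM in KO LPS (2.99 ± 0.13 SE, adjusted p = 4.8e-06) but at 22.1 and 24.5 CPM in Xist-only and 309 and 255 CPM in Y-only KO LPS cells, and it did not pass among Xist-only cells (0.19, adjusted p = 0.71). The prostaglandin-degrading Hpgd (2.79 and -0.21) and Myzap (3.30 and 0.56) did the same. Cd74, the MHC class II chaperone, fell in both sets: it stood at 1220.5 and 1213 CPM in WT LPS and 289 and 247 CPM in KO LPS (-2.18 ± 0.09 SE, adjusted p = 4.8e-06; -1.62 among Xist-only cells). The imprinted Peg3 rose in both (2.43 ± 0.15 SE, adjusted p = 1.6e-05 and 2.38, adjusted p = 0.0028), Oas2 fell in both (-1.69 ± 0.16 SE, adjusted p = 0.00014 and -1.95, adjusted p = 0.0028), as did the platelet chemokine Ppbp (-2.85 ± 0.28 SE, adjusted p = 0.0002 and -2.74, adjusted p = 0.0051; -0.67 and not past the test over all cells with classes from single-cell markers), Nos2 (-1.56 and -1.16) and Socs3 (-1.01 and -0.44). Cxcl10, at 17747 and 19237 CPM in WT LPS and 10378 and 9587 CPM in KO LPS, fell over all cells (-0.89 ± 0.08 SE, adjusted p = 0.00011) and did not pass among Xist-only cells (-0.07, adjusted p = 0.71). Endothelial cells had 144 genes of their own (1.53%), and 27 in Xist-only cells (0.323%). Of the 144 genes, 82 were tested in no other class, as were all 27 in Xist-only cells, so for these no difference between classes was tested.

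Stromal cells, at 61 to 165 cells per library, gave few calls. Elastin, Eln, stood at 77.0 and 128 CPM in WT LPS and 377 and 545 CPM in KO LPS (2.16 ± 0.29 SE, adjusted p = 0.039), Limch1, an actomyosin regulator, rose (1.56 ± 0.21 SE, adjusted p = 0.039), and the stromelysin Mmp3 stood at 627 and 1039 CPM in WT LPS and 196 and 189.9 CPM in KO LPS (-2.11 ± 0.26 SE, adjusted p = 0.038). None of these passed among Xist-only cells. In platelets (36 to 108 cells) Tsc22d1 (1.32 ± 0.19 SE, adjusted p = 0.046), Ms4a6c (3.86 ± 0.54 SE, adjusted p = 0.046) and the neutrophil granule gene Ngp (2.01 ± 0.29 SE, adjusted p = 0.046) rose; Ngp and Ms4a6c are transcripts of other blood cells, and their part in these droplets was not tested. No Xist-only test was possible in platelets.

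Among the smaller myeloid classes Nos2 fell in dendritic cells, at 55.6 and 55.2 CPM in WT LPS and 7.21 and 11.6 CPM in KO LPS (-2.65 ± 0.23 SE, adjusted p = 3.3e-05; -2.31, adjusted p = 0.0043 among Xist-only cells). In interstitial macrophages it stood at 68.0 and 106 CPM in WT LPS and 19.8 and 8.32 CPM in KO LPS (-2.46 ± 0.30 SE, adjusted p = 1.3e-05) and did not pass among Xist-only cells (-2.65, adjusted p = 0.053). In dendritic cells the integrin Itgae (CD103) rose (2.54 ± 0.26 SE, adjusted p = 8.7e-05; 2.27, adjusted p = 0.036), and Qpct rose over all cells (3.01 ± 0.31 SE, adjusted p = 9.5e-05; 1.97, adjusted p = 0.097, not past the threshold, in Xist-only cells). Dendritic cluster 36, led by Cd209a, Mgl2 and Itgae, was 0.510% and 0% of dendritic cells in WT LPS and 13.3% and 13.9% in KO LPS, where 23 of its cells were Y-only and 1 Xist-only.

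In interstitial macrophages the B-cell attractant Cxcl13 stood at 4493 and 2929 CPM in WT LPS and 1173 and 457 CPM in KO LPS (-2.17 ± 0.24 SE, adjusted p = 3.6e-06; -1.53 among Xist-only cells). The unnamed cluster 45, led by Prg4, Cxcl13 and Alox15, held 32 and 46 WT LPS cells and 11 and 10 KO LPS cells. It scored highest for interstitial macrophages but was left out of them, and its part in this fall was not tested. Ccl17, which fell in alveolar macrophages, stood here at 74.1 and 228 CPM in WT LPS and 463 and 1092 CPM in KO LPS (2.39 ± 0.32 SE, adjusted p = 3.0e-05) and did not pass among Xist-only cells (1.72, adjusted p = 0.053). The granzyme Gzmb fell (-1.56 ± 0.17 SE, adjusted p = 3.0e-06; -2.91 among Xist-only cells), and the granule peptide Camp rose (1.86 ± 0.19 SE, adjusted p = 1.4e-06; 2.97 among Xist-only cells; 0.40 and not past the test with classes from single-cell markers), with 3 of 10 neutrophil markers higher and none lower in the class. In nonclassical monocytes, which patrol vessel walls, the interferon-inducible Batf2 fell in both sets (-1.55 ± 0.23 SE, adjusted p = 8.0e-05 and -1.60, adjusted p = 0.014), as did Spp1, osteopontin (-2.92 ± 0.43 SE, adjusted p = 7.4e-05 and -3.20, adjusted p = 0.012). The adhesion receptor Ceacam1 (2.78 ± 0.23 SE, adjusted p = 5.6e-08) and the glucocorticoid target Fkbp5 (1.69 ± 0.21 SE, adjusted p = 5.6e-06) rose over all cells, and neither passed among Xist-only cells (1.40 and 0.16). The monocyte attractant Ccl2 rose in both (1.00 ± 0.29 SE, adjusted p = 0.034 and 2.06, adjusted p = 0.033), but over all cells the rise did not pass without the second KO LPS library (0.25, adjusted p = 0.59) or with DESeq2 (adjusted p = 0.80), and the value was -0.13 with classes from single-cell markers. Dendritic cells had 26 genes of their own (0.291%), interstitial macrophages 4 (0.054%) and nonclassical monocytes 5 (0.0724%). In Xist-only cells these counts were 3 (0.0383%), 0 and 3 (0.0555%). Over all cells 15 of the dendritic, 2 of the interstitial and 1 of the nonclassical genes were tested in no other class.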

How the data were processed

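The deposited files hold UMI counts per gene and cell barcode for 6 libraries. Per the submitters' processing notes, Cell Ranger 6.1.0, Seurat 4.1.0, R 4.1.3 and mm10 were used; no source used here names the annotation release. Of 32285 gene identifiers, 32158 were found in GENCODE M21. The members, lists and tests were chosen with earlier results of these data known.

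From the deposited counts, barcodes with at least 200 genes and at most 10% mitochondrial UMIs were kept. Scrublet's own threshold marked under 0.5% of cells in 3 of the 4 LPS libraries, so the cells with the highest scores at 0.8% per 1000 cells were removed instead (6.70% to 9.65% of LPS cells). Mixed clusters were left without a name. Their cells entered no class but stayed in the totals of the class shares, except the total without neutrophils. Clusters (50) came from scanpy 1.11.5 in Python 3.11.15 (Leiden from leidenalg 0.10.2, resolution 1.5; 1830 variable genes, 30 components, 20 neighbours). A cluster was named from markers, and a cell counted with at least 2 of them. UMIs were summed per library and class with at least 30 cells in each LPS library (20 for Xist-only cells) and tested in R 4.3.3 with edgeR 4.0.16 (quasi-likelihood test, TMM, filterByExpr, Benjamini-Hochberg adjustment within a class). Class shares were tested with edgeR on cell counts. A gene belonged to 1 class where it was called in that class alone and limma 3.58.1, on log2(CPM + 1) in the class minus its mean over the other classes within a library, also passed, or where no other class could test it. TMM moved KO LPS against WT LPS by up to 0.294 (log2, neutrophils). DESeq2 1.42.0, RLE scaling, no filter, a replicate block, left-out libraries, all 6 libraries, other class rules and Xist-only cells were alternatives; the Xist-only setting was made the second main view after seeing the sex marks, and its own alternatives were added then.

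Libraries with the same replicate number did not deviate together (correlations of -0.101 to 0.048 over classes), so they were not treated as pairs. In simulated counts, 72% of 2-fold changes in neutrophils passed, with 4 false calls among 10187 genes. The simulation used a single fixed dispersion for all genes and classes, not estimated from these data, so its rates need not hold for them.

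Named genes were, by rule, Nos1 and its neighbours, the 10 most shared genes in each direction, per class the 3 largest rises and falls with at least 50 CPM and no overlap between genotypes, the 2 rises and 2 falls that most set a class apart, up to 4 genes of each list by p, and Socs1, Socs3, Tnf, Il1b, Il6, Il10, Cxcl10, Nos2 and Nfkbia. Predicted, ribosomal, mitochondrial, haemoglobin and antigen receptor genes were left out of the ranked parts. Only some of the genes so chosen are printed, and genes near 0 in a group were mostly left out. Tesc in neutrophils, near 0 in WT LPS, was kept. Overlapping genes and near-identical copies cannot be separated in these counts.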

Additional observations from a re-analysis of the deposited data

Results flagged for a closer look

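Some genes had a KO effect under LPS that differed between 1 cell class and the others, by the limma test of the difference itself within each library. Values here are the log2 KO effect in the class minus its mean over the other classes that tested the gene. In neutrophils the difference was 1.79 for the calcium-binding regulator Tesc and -1.20 for the kinase-like Styk1, and -1.34 for the phosphodiesterase Pde7b among Xist-only cells. In alveolar macrophages it was -2.47 for Tcim and 1.88 for the lipid enzyme Napepld. In classical monocytes it was 2.44 for the TGF-beta signal transducer Smad3, and -1.55 among Xist-only cells for the neutrophil growth factor Csf3. Among Xist-only cells the KO effect on Styk1 in neutrophils changed sign and did not pass in edgeR (0.34, adjusted p = 0.24). The same held for Napepld in alveolar macrophages (-0.71, adjusted p = 0.27). Smad3 was not tested among Xist-only cells.

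B cells differed from the other classes by 2.40 for Rgs16, a brake on G protein signalling. Among their Xist-only cells the difference was 3.50 for the transcription co-factor Eya1 and -3.03 for the stress pseudokinase Trib3. T cells differed by 0.75 for Dapl1 and 1.18 for Igfbp4, NK cells by -1.65 for Camk2n1, an inhibitor of CaM kinase II, and endothelial cells by 2.75 for the lectin receptor Clec1a. Among Xist-only cells the KO effect on Clec1a was 0.19 and did not pass in edgeR (adjusted p = 0.71).

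Genes called in 1 class and in no other, whose effect also differed from that of the other classes, were counted over all cells. There were 127 in neutrophils, 162 in alveolar macrophages, 336 in classical monocytes, 469 in B cells and 62 in endothelial cells. Dendritic cells had 11, T cells 6, NK cells 5, nonclassical monocytes 4 and interstitial macrophages 2. Among Xist-only cells B cells had 944, neutrophils 39, classical monocytes 29, alveolar macrophages 23 and nonclassical monocytes 3, with 1 each in dendritic, T and NK cells. The sex marks differ between the genotypes in all of these classes except within the Xist-only set. Their part in the gene values above and in the counts over all cells was not tested.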

How the results depend on the processing

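Every class share, count and named gene was recomputed with 1 choice changed at a time, and shares and counts listed here are those that changed side of the adjusted p of 0.05, changed sign or, for counts, moved by over 1.5 times. For named genes the changes of sign are listed, with the changes of call outside the Xist-only set. The cause of these moves was not tested, apart from those that follow from fewer cells, genes or libraries. Of 140 class and gene pairs named, 138 kept direction and call with RLE scaling, 127 of 134 testable ones with DESeq2 and 93 of 136 among Xist-only cells. The labels number the libraries of each group, but libraries with the same number did not deviate together, so a fit with the replicate number as a block has no basis in a shared source. That block kept direction and call for 137 named genes. Of the class shares (log2 KO LPS over WT LPS), with the replicate number as a block, those that changed call or sign were epithelial cells 0.61. With classes from single-cell markers they were classical monocytes -0.36, epithelial cells 0.036, interstitial macrophages -0.028, nonclassical monocytes 0.56 and plasmacytoid dendritic cells 1.13. Without doublet removal they were dendritic cells -0.40, epithelial cells 0.56 and interstitial macrophages -0.11. With neutrophils left out of the total they were alveolar macrophages -0.068, classical monocytes -0.46, dendritic cells -0.57, epithelial cells 0.33, interstitial macrophages -0.26, nonclassical monocytes -0.078 and plasmacytoid dendritic cells -0.033. With at most 5% mitochondrial UMIs they were alveolar macrophages 0.076 and nonclassical monocytes 0.32. With only Xist-only cells they were NK cells -0.073, alveolar macrophages -0.25, classical monocytes -0.60, epithelial cells 0.46, interstitial macrophages -0.075 and nonclassical monocytes 0.61. Counts of called genes that moved by over 1.5 times were, with the replicate number as a block, in T cells 1090 and platelets 98. With classes from single-cell markers they were nonclassical monocytes 1449, B cells 125, T cells 393, NK cells 125, stromal cells 602 and platelets 260. With only Xist-only cells they were neutrophils 1304, alveolar macrophages 2001, interstitial macrophages 25, classical monocytes 1193, nonclassical monocytes 133, dendritic cells 83, T cells 231, NK cells 81, endothelial cells 369 and stromal cells 0. With DESeq2 they were neutrophils 2066, alveolar macrophages 2034, interstitial macrophages 236, classical monocytes 2502, nonclassical monocytes 130, dendritic cells 389, B cells 2229, T cells 173, NK cells 143, endothelial cells 968, stromal cells 50 and platelets 45. With RLE scaling the value for stromal cells was 23. Without the low-count filter they were stromal cells 271 and platelets 122. With all 6 libraries in the fit the value for stromal cells was 38. With the block on crossed numbers the value for stromal cells was 197. Among Xist-only cells the counts moved, with the replicate number as a block, to interstitial macrophages 223, nonclassical monocytes 289, dendritic cells 440, T cells 405 and NK cells 250. With DESeq2 they were neutrophils 654, alveolar macrophages 614, classical monocytes 452, nonclassical monocytes 64, B cells 1621, T cells 83, NK cells 35, endothelial cells 194 and stromal cells 25. Within single clusters Xist-only cells gave 190 (cluster 0, neutrophils), 383 (cluster 2, neutrophils), 269 (cluster 4, neutrophils), 208 (cluster 7, neutrophils), 182 (cluster 16, B cells), 19 (cluster 25, B cells) and 1747 (cluster 8, B cells) called genes. Genes shared by at least 4 classes numbered, with only Xist-only cells, by direction, higher 88 and lower 97. With DESeq2 they were higher 121 and lower 352. Among Xist-only cells these numbered, with the replicate number as a block, by direction, higher 165 and lower 174. With DESeq2 they were higher 33 and lower 52. Counting only classes at 10% of a gene's highest level, 31 genes were lower. Genes belonging to 1 class numbered, with the replicate number as a block, in interstitial macrophages 14 and dendritic cells 40. With only Xist-only cells they were neutrophils 56, alveolar macrophages 127, interstitial macrophages 0, classical monocytes 34, nonclassical monocytes 3, dendritic cells 3, B cells 1033, T cells 5, NK cells 4, endothelial cells 27 and stromal cells 0. Some named genes changed the sign of their log2 difference. Without KO LPS 1 this gave Tnf in neutrophils 0.022. Without WT LPS 2 this gave Tnf in neutrophils 0.027 and Ltf in neutrophils -0.052. With only Xist-only cells this gave Camp in neutrophils 0.68, Mmp9 in neutrophils -0.18, Styk1 in neutrophils 0.34, Tnf in alveolar macrophages 0.76, Il1a in alveolar macrophages 0.79, Tnfaip3 in alveolar macrophages 0.41, Nfkbia in alveolar macrophages 0.19, Socs3 in alveolar macrophages 0.20, Dhrs3 in alveolar macrophages -0.062, Napepld in alveolar macrophages -0.71, Cxcl10 in classical monocytes 0.50, Nfkbia in classical monocytes 0.19, Socs3 in classical monocytes 0.11, Socs1 in classical monocytes 0.082, Il1b in classical monocytes 0.18, Ifit3 in classical monocytes 0.74, Il15 in classical monocytes 1.30, Tpi1 in classical monocytes -0.25, Socs1 in T cells 0.15 and Hpgd in endothelial cells -0.21. With classes from single-cell markers this gave Ltf in neutrophils -0.13, Ccl2 in nonclassical monocytes -0.13 and Socs1 in B cells -0.25. Ltf in neutrophils, near 0 over all cells and past the test of these only without KO LPS 2, was -0.027 with RLE scaling, -0.021 without the low-count filter, -0.0019 with the replicate number as a block, -0.034 with all 6 libraries in the fit, -0.15 without KO LPS 2 and -0.024 with DESeq2. Calls ended without a change of sign for Tnf in alveolar macrophages -0.19, Il1a in alveolar macrophages -0.14, Socs1 in B cells 0.20 and Socs3 in B cells -0.27 without WT LPS 1, Tnf in alveolar macrophages -0.18 and Socs1 in B cells 0.17 without WT LPS 2, Tnf in alveolar macrophages -0.19, Ccl17 in interstitial macrophages 2.37, Ccl2 in nonclassical monocytes 1.08, Socs1 in B cells 0.18 and Cd200 in T cells 0.78 with DESeq2, Camp in interstitial macrophages 0.40, Ifit3 in B cells 0.40, Ddx58 in B cells 0.48, Socs3 in B cells -0.57, Nfkbia in B cells -0.15, Traf1 in B cells -0.83, Hspe1 in B cells -0.48, H2-Oa in B cells 0.66, Polm in B cells 1.11, Eya1 in B cells 0.75, Cd200 in T cells 0.70, Il7r in NK cells 1.16, Ppbp in endothelial cells -0.67 and Ngp in platelets 1.60 with classes from single-cell markers, Ccl2 in nonclassical monocytes 0.25, Socs1 in B cells 0.18, Socs3 in B cells -0.21 and Cd200 in T cells 0.56 without KO LPS 2, Socs1 in B cells 0.18 with RLE scaling, Socs1 in B cells 0.17 without the low-count filter, Socs1 in B cells 0.16 with all 6 libraries in the fit, Socs1 in B cells 0.18 without KO LPS 1, Limch1 in stromal cells 1.56 with the replicate number as a block. Values passed that had not for Camp in neutrophils -0.14 and Il15 in classical monocytes -0.25 without the low-count filter, Camp in neutrophils -0.12 with the replicate number as a block, Camp in neutrophils -0.15 with all 6 libraries in the fit, Camp in neutrophils -0.17 and Il15 in classical monocytes -0.33 without KO LPS 1, Camp in neutrophils -0.23 with classes from single-cell markers, Camp in neutrophils -0.15 with DESeq2, Il15 in classical monocytes -0.38 without WT LPS 1. Leaving out 1 library at a time changed the call or sign of the share of alveolar macrophages (0.13 to 0.35, without WT LPS 2), dendritic cells (-0.39 to -0.16, without KO LPS 1), epithelial cells (0.45 to 0.83, without KO LPS 1 or WT LPS 1 or WT LPS 2), interstitial macrophages (-0.040 to 0.14, without WT LPS 2) and nonclassical monocytes (0.11 to 0.36, without KO LPS 1). Among Xist-only cells this held for the share of NK cells (-0.17 to 0.037, without WT LPS 2), T cells (0.45 to 0.56, without WT LPS 1), alveolar macrophages (-0.38 to -0.12, without KO LPS 2), endothelial cells (0.41 to 0.65, without WT LPS 1), neutrophils (-1.06 to -0.67, without WT LPS 1), nonclassical monocytes (0.60 to 0.63, without WT LPS 1), plasmacytoid dendritic cells (0.40 to 0.91, without KO LPS 2), platelets (0.80 to 1.74, without KO LPS 1 or WT LPS 1 or WT LPS 2) and stromal cells (0.78 to 1.30, without WT LPS 1 or WT LPS 2). It moved the count of called genes by over 1.5 times in alveolar macrophages (2575 to 3977, without WT LPS 1), nonclassical monocytes (303 to 501, without WT LPS 1), dendritic cells (549 to 1143, without KO LPS 1 or KO LPS 2), T cells (459 to 621, without WT LPS 1), NK cells (189 to 552, without WT LPS 1), endothelial cells (998 to 1355, without KO LPS 1 or KO LPS 2), stromal cells (33 to 207, without KO LPS 1 or KO LPS 2 or WT LPS 1 or WT LPS 2) and platelets (65 to 111, without KO LPS 1 or KO LPS 2 or WT LPS 1 or WT LPS 2). Among Xist-only cells it did so in neutrophils (837 to 1458, without WT LPS 2), alveolar macrophages (907 to 1422, without KO LPS 1 or WT LPS 1 or WT LPS 2), interstitial macrophages (71 to 236, without KO LPS 1 or KO LPS 2 or WT LPS 1 or WT LPS 2), classical monocytes (741 to 1191, without WT LPS 1), nonclassical monocytes (73 to 176, without KO LPS 1 or WT LPS 1), dendritic cells (104 to 193, without KO LPS 1 or KO LPS 2 or WT LPS 1), T cells (143 to 384, without KO LPS 2 or WT LPS 1), NK cells (0 to 264, without KO LPS 1 or KO LPS 2 or WT LPS 2), endothelial cells (170 to 577, without KO LPS 1 or KO LPS 2 or WT LPS 2) and stromal cells (0 to 56, without KO LPS 1 or KO LPS 2 or WT LPS 2). It moved the shared genes higher (268 to 339, without KO LPS 1 or WT LPS 1). Among Xist-only cells it moved those higher (40 to 71, without WT LPS 1). Genes belonging to 1 class moved in interstitial macrophages (3 to 8, without KO LPS 1 or KO LPS 2), classical monocytes (215 to 260, without KO LPS 1 or KO LPS 2) and nonclassical monocytes (3 to 4, without KO LPS 2). Over the left-out libraries Tnf in neutrophils ranged from -0.083 to 0.027 and Ltf from -0.15 to 0.11. Leave-one-out counts of 0 came from edgeR: among Xist-only NK cells 415 and 477 genes had an unadjusted p under 0.05 without KO LPS 1 and KO LPS 2, and among Xist-only stromal cells 386 without WT LPS 1; no other tool was run on these. With 1 library left in a group, its spread was taken to be that of the other group. The planned comparison of Y-only cells between the genotypes was not run, because the WT LPS libraries held 4 and 1 such cells. In simulated counts with the means and depths of stromal cells and a fixed dispersion, 55.9% of 2-fold and 17% of 1.5-fold changes passed, against 87.9% and 48% in alveolar macrophages.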
